A study of Mus musculus with 2 samples.

Results

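The genes described here encode the constitutive proteasome, the protease complex that degrades ubiquitin-tagged proteins in the cytosol and nucleus. They were taken as all genes whose symbol starts with Psma to Psmg and a number, leaving out the interferon-inducible Psmb8, Psmb9, Psmb10, Psme1 and Psme2. That gave 45 of the 18193 genes with a probe set of their own on the array, each read from the probe set of highest mean log2 signal. RNA came from mouse mammary carcinoma cells of 2 kinds, with 1 Affymetrix array each. The parental 4T1 line, a BALB/c mammary carcinoma line that spreads to distant organs, is compared with 4T1-3R liver metastatic cells, written 4T1-3R_L, which were recovered from liver metastases in vivo and then grown in culture. No treatment is labelled for either, and the labels do not say from how many animals or metastases the 4T1-3R_L cells came or whether they are a clone. Since each group has 1 array, nothing could be tested against replicates. Every difference below describes these 2 arrays and has not been set against variation between cultures.

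The proteasome has a barrel-shaped 20S core and a 19S regulatory particle that caps it. The core is built from rings of alpha subunits, which form the gate, and beta subunits, of which Psmb5, Psmb6 and Psmb7 carry the chymotrypsin-like, caspase-like and trypsin-like active sites. The regulatory particle has a base, with a ring of ATPases that unfold substrates, and a lid, whose deubiquitinase Psmd14 removes the ubiquitin chain. Dedicated chaperones assemble both, and carcinoma cells depend on proteasome capacity to clear misfolded protein.

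Not every gene with such a symbol is a proteasome subunit. Of the 45, 14 encode the constitutive core (Psma1 to Psma7 and Psmb1 to Psmb7) and 17 the regulatory particle (6 ATPases, 3 other base subunits and 8 lid subunits). A further 7 are assembly chaperones, and 3 are the alternative activators Psme3 and Psme4 and the inhibitor Psmf1. Psmc3ip, a cofactor of meiotic recombination, and Psme3ip1, a partner of Psme3, entered through their names alone. Psma8, a testis form of an alpha subunit, had signals of 5.2 in parental and 22.4 in 4T1-3R_L cells, and Psmb11, the thymus beta subunit, 47.2 and 15.5. Both lay under the floor of 90.6, the median of all signals of both arrays, which served as background here. A gene is called measured where it reached the floor on at least 1 array, and the other 43 genes reached it on both.

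As checks of the samples, the luminal keratins Krt8 and Krt18 had signals between 18784 and 23738 on both arrays, and 6 of 7 mammary epithelial markers were above the floor on at least 1 array. The basal keratin Krt14 went from 5324 to 171 and Krt5 was under the floor on both. The adhesion genes Epcam (7536 to 1776) and Cdh1 (11787 to 5941) and the keratin Krt19 (4191 to 2470.4) were also lower in 4T1-3R_L cells, and the 6 measured markers had a median log2 ratio of -0.88. The part of this difference in the values below was not tested. All 6 hepatocyte markers with a probe set, all 5 fibroblast markers and all 4 endothelial markers lay under the floor on both arrays, as did 5 of 6 leukocyte markers; the other, Cd68, was at 388 and 374. The summed signal of the hepatocyte markers was 167 in parental and 103 in 4T1-3R_L cells. The array median was 87.4 in parental and 93.3 in 4T1-3R_L cells.

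The proteasome genes had a lower median than all measured genes, by an amount that depended on the probe set read. The share at least 2-fold lower was near that of all measured genes, and 0 of 43 were at least 2-fold higher, against 6.23%. The log2 ratio of 4T1-3R_L over parental signal had a median of -0.26 over the 43 measured genes and -0.0066 over all 11135 measured genes. It was negative for 30 of the 43 proteasome genes, against 50.5% of all measured genes. With the next probe set, measured for 22 of them, the median lay -0.051 from that of all measured genes and 11 of 22 lay below it. At least 2-fold lower were 2 of 43, the lid subunit Psmd7 and the chaperone Psmg2, and at least 2-fold higher were 0 of 43, against backgrounds of 4.48% and 6.23% of all measured genes. Within 0.5 of 0 on the log2 scale were 30 of 43 genes (69.8%), against 63.2% of all measured genes, which is near the background. An array reads RNA from the whole culture, so less RNA per cell and fewer cells with the RNA cannot be told apart. When the arrays were scaled to the hybridisation controls, labelled transcripts added to each sample, 16 of the 43 genes passed 2-fold downwards. The share of all measured genes was counted in both directions together, at 22.8%, so the 16 have no like background. Under this scaling the median of all measured genes moved to -0.54. Directions are therefore given relative to the median gene.

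**Figure D1:**
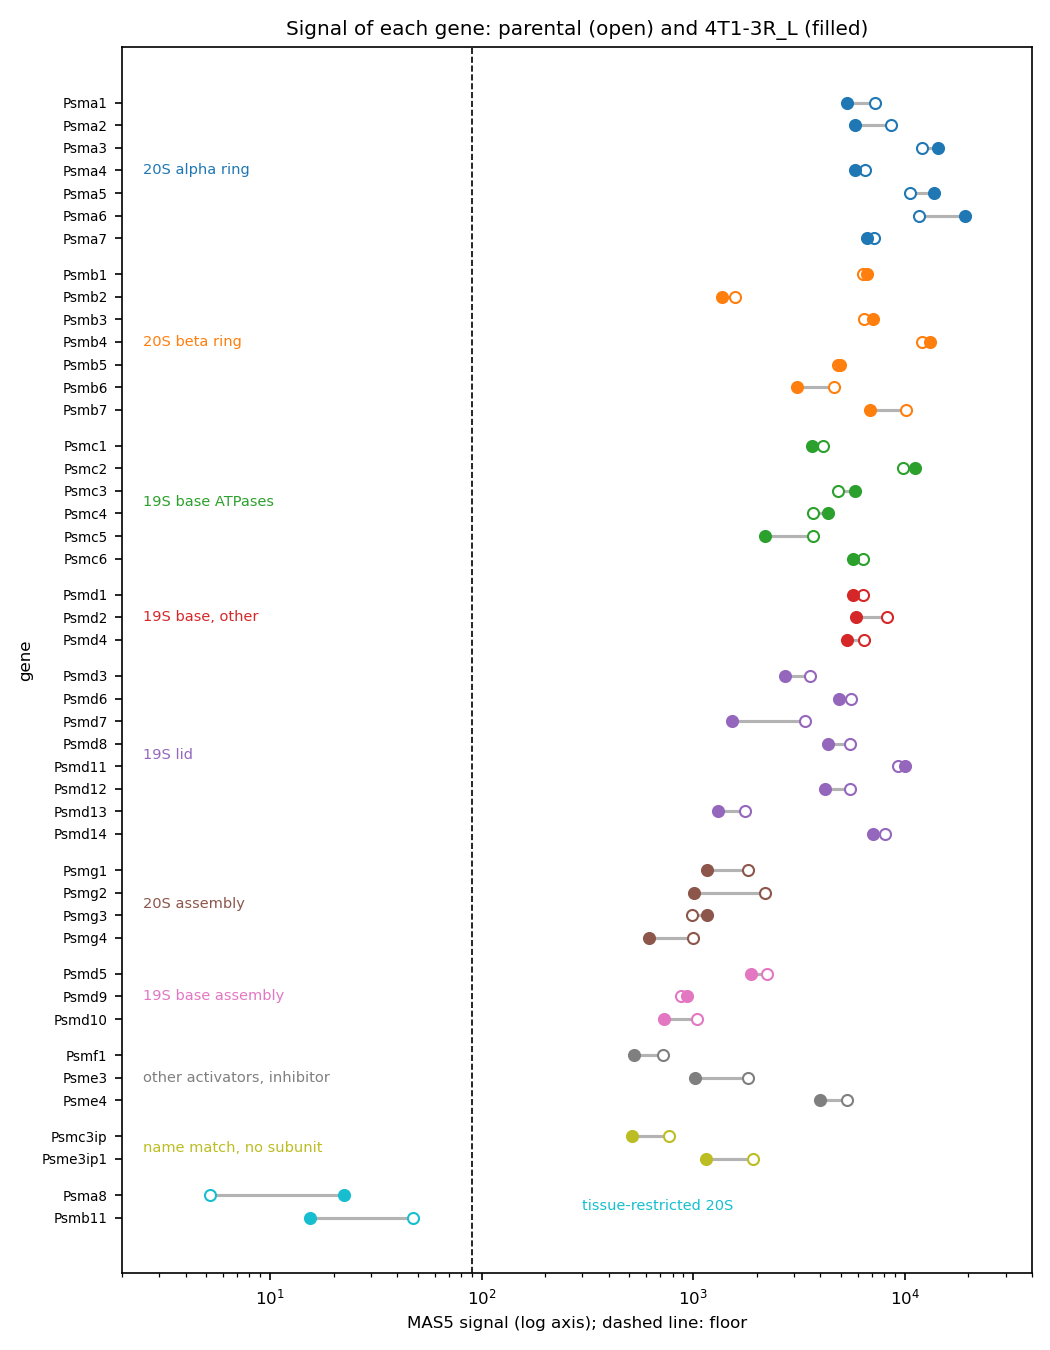
MAS5 signal (x axis, log scale) of each of the 45 genes (rows, by part of the complex) on the parental array (open circles) and the 4T1-3R_L array (filled circles), 1 array each; the dashed line is the floor of 90.6. Most pairs lie close together, Psmd7 and Psmg2 are the widest among the measured genes, and only Psma8 and Psmb11 lie under the floor; signals of different genes come from different probes and are not comparable with each other.

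Core subunits lay on either side of 0. Of the 14, 7 had negative and 7 positive log2 ratios, from -0.59 for Psmb6 to 0.72 for Psma6, with a median of -0.048, and 10 of 14 were within 0.5 of 0. The alpha ring had a median of -0.11. Psma6 was the highest core gene, going from a signal of 11693 in the parental line to 19238 in 4T1-3R_L, 1.65-fold higher. Psma5, at 10608.5 against 13716 (log2 ratio 0.37), and Psma3, at 12056 against 14429.7 (0.26), were also higher in 4T1-3R_L cells. The next probe set of Psma5, also strong at 6053 and 6386, gave only 0.077. That of Psma3, weak at 286.5 and 468, gave 0.71. Psma2 went from 8662 to 5849 (-0.57) and Psma1 from 7264 to 5356 (-0.44). The remaining alpha subunits lay between these, Psma4 at -0.15 and Psma7 at -0.11. The alpha ring thus spanned 1.28 on the log2 scale on the probe sets used. Its upper end was Psma6, whose next probe set, at 9120 and 10888, gave 0.26.

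Of the catalytic beta subunits, 2 of 3 were lower in 4T1-3R_L cells. Psmb6, the caspase-like subunit, had a signal of 4645 in parental and 3096 in 4T1-3R_L cells, a log2 ratio of -0.59. Psmb7, the trypsin-like subunit, went from 10162 to 6849, a log2 ratio of -0.57. Psmb5, the chymotrypsin-like subunit and the main target of proteasome inhibitor drugs, stayed level at 4863 and 4927 (0.019). On the probe sets used, the structural subunits were near 0. Psmb3 was at 0.14 (6432 and 7072) and Psmb4 at 0.12 (12093 and 13126). Psmb1 was at 0.058 (6376 and 6639.6) and Psmb2 at -0.21 (1581 and 1364). Strong next probe sets gave -0.70 for Psmb3 (5305 and 3262) and 0.58 for Psmb4 (8704 and 13004.5). A weak one gave 0.85 for Psmb1 (167 and 302). The beta ring as a whole had a median of 0.019. Each catalytic gene had a single measured probe set, so these values have no check within the array. Psmb5 was read by an _a_at probe set and Psmb6 and Psmb7 by plain _at ones, a difference in kind that moved with the ratios across the core.

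The promoters of Psmb5 and Psmb6 are shown because they differ most in log2 ratio among the 3 catalytic genes while both windows hold a match to the core of the antioxidant response element. That element is bound by the factors Nfe2l1 and Nfe2l2, of which Nfe2l1 is known for inducing proteasome genes when proteasome activity falls. Windows run from 250 bases before to 50 after the RefSeq start site, and capitals mark TGACNNNGC.
Psmb5 promoter, GRCm38.p6, chr14:54617946-54618245, minus strand: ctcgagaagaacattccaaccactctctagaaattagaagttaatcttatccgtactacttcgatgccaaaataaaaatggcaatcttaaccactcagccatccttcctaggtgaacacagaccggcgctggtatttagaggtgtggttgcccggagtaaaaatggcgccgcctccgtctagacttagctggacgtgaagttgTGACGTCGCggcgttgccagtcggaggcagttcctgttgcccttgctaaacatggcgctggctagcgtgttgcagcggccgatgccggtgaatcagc
Psmb6 promoter, GRCm38.p6, chr11:70525107-70525406, plus strand: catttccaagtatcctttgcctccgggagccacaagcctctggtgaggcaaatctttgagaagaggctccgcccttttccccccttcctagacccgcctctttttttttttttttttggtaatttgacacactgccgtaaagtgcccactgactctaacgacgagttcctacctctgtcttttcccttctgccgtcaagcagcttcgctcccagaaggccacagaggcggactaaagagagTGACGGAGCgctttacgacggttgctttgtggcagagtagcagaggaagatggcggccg
The match starts 47 bases before the start site in Psmb5 and 9 bases before it in Psmb6. Psmb7 is not in the promoter table.

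Of the 17 regulatory particle genes, 13 had negative log2 ratios and the median was -0.19, with 15 of 17 within 0.5 of 0. Among the 6 ATPases, 3 were positive and 3 negative, with a median of 0.015. Psmc5 was the lowest of them, with a signal of 3677 in parental and 2198 in 4T1-3R_L cells, 1.67-fold lower. Psmc3 (4823 and 5807, log2 ratio 0.27), Psmc4 (3708 and 4349.7, 0.23) and Psmc2 (9827 and 11179, 0.19) were the 3 highest genes of the regulatory particle on the probe sets used. Strong next probe sets gave -0.49 for Psmc4 (2135 and 1523) and -0.18 for Psmc2 (8598.5 and 7571). Psmc1 was at -0.17 and Psmc6 at -0.16. All 3 other base subunits were negative. Psmd2, a scaffold subunit that docks shuttle factors, went from 8231 to 5874 (-0.49), the ubiquitin receptor Psmd4 from 6411 to 5318 (-0.27), and the scaffold Psmd1 from 6368 to 5708 (-0.16). The next probe set of Psmd4, also strong at 4807 and 3000, gave -0.68.

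In the lid, 7 of 8 genes had negative log2 ratios, and the median was -0.37. Psmd7, the partner of the deubiquitinase Psmd14 in the lid, had a signal of 3379.9 in parental and 1534 in 4T1-3R_L cells. It was 2.20-fold lower, the largest difference of any constitutive core or regulatory particle subunit. Its next probe set, much weaker at 202 and 149, gave a log2 ratio of -0.44. Psmd14 itself was at -0.19 (8057 and 7072). Psmd13 (-0.42), Psmd3 (-0.39), Psmd12 (-0.38), Psmd8 (-0.35) and Psmd6 (-0.19) were lower by smaller amounts. For Psmd6 the next probe set, of like strength at 4459 and 6112, gave 0.45. On the probe sets used, the lid subunit on the positive side was Psmd11, a clamp between lid, base and core, at 9255 and 10083 (0.12). Its other strong probe sets differed in sign, at 0.41 (5992 and 7973), -0.24 (3344 and 2837) and -0.057 (2016.5 and 1938). The lid median lay 0.38 below that of the base ATPases, an unreplicated difference that depended on the probe sets. Relative to all measured genes, the lid was at -0.25 and the ATPases at -0.15 on plain _at probe sets, and the order turned, at 0.092 and -0.15, with the next probe set of 4 lid and 3 ATPase genes.

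Of the 7 assembly chaperones, Psmg2 had the lowest log2 ratio, also the lowest of any measured constitutive proteasome gene outside the lid. Psmg1 and Psmg2 form a dimer that starts the alpha ring. Psmg2 went from 2181 to 1006, 2.17-fold lower, and its next probe set, at 2033 and 1018, gave a log2 ratio of -0.998. Psmg1 went from 1815 to 1164 (-0.64). Psmg3 and Psmg4 form the other chaperone dimer of the core and differed from each other, Psmg3 at 0.23 (985 and 1159) and Psmg4 at -0.69 (1002 and 620). Pomp, the core maturation factor with another naming scheme, was level at 6436 and 6703 (0.059). Of the chaperones of the base, Psmd10 was at -0.52 (1040.1 and 728), Psmd5 at -0.26 (2246 and 1869.9) and Psmd9 at 0.096 (875 and 935). Over all 7 Psm chaperones the median was -0.52, with 5 negative.

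Both alternative activators were lower in 4T1-3R_L cells. Psme3, the nuclear activator that opens the core without ATP, went from 1814 to 1022 (-0.83), and its next probe set gave -0.92. Psme4, a large activator linked to chromatin and DNA repair, was at -0.41 on the probe set used (5318 and 3995) and at -0.78 on the next. The inhibitor Psmf1 was at -0.45 (722 and 528), but at 0.12 on its next probe set. The name matches Psmc3ip (772 and 514, -0.59) and Psme3ip1 (1913 and 1149, -0.73) were lower too and count in the 30 negative genes above without being subunits. Over the 31 core and regulatory particle genes alone, 20 were negative and the median was -0.17.

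**Figure D2:**
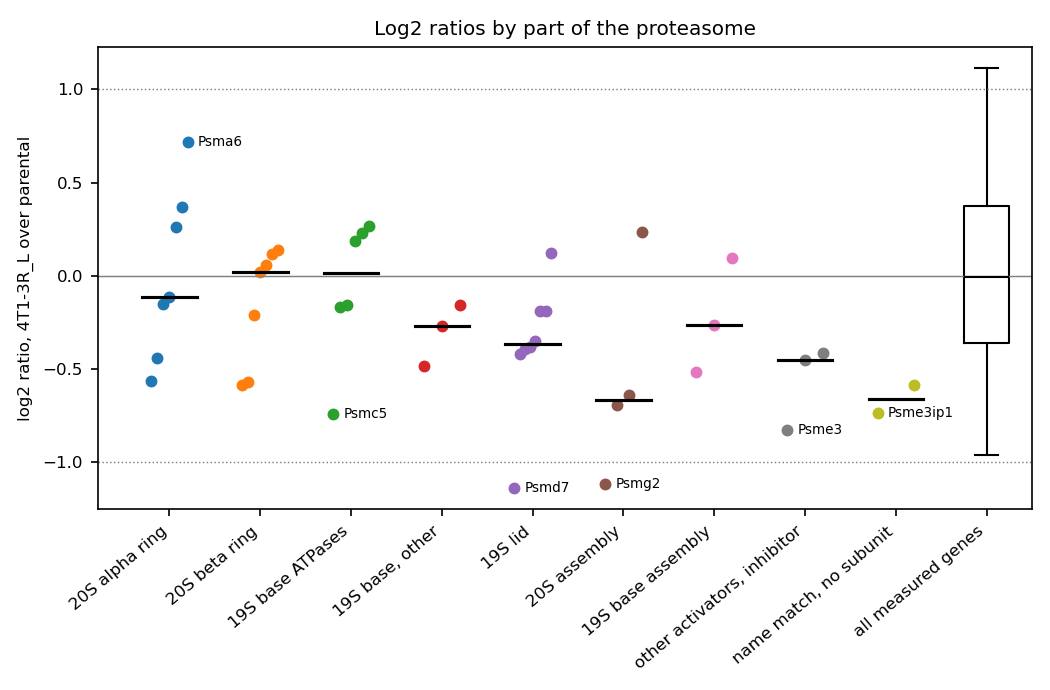
Log2 ratio of 4T1-3R_L over parental signal (y axis) for each of the 43 measured genes (points) by part of the complex, with the median of each part as a bar; the box shows all 11135 measured genes from the lower to the upper quartile, with whiskers at the 5th and 95th percentiles. Core and ATPase medians lie near 0, the lid and the core chaperones lie lower, and Psmd7 and Psmg2 pass the dotted line for a 2-fold difference.

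Between the parts of the complex, the core median lay 0.14 above that of the regulatory particle on the log2 scale (-0.048 against -0.19), while core genes spanned 1.30 and regulatory particle genes 1.41. The ranges overlapped, from -0.59 at the lowest core gene to 0.27 at the highest regulatory particle gene. The order of the medians turned when only probe sets with plain _at names were used, with the core minus regulatory particle difference at -0.026, and the difference was 0.011 with the median over each gene's probe sets. With the next probe set of each gene in place of the first, which left 8 core and 8 regulatory particle genes, it was 0.50. No direction between core and regulatory particle therefore held across the probe sets.

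**Figure D3:**
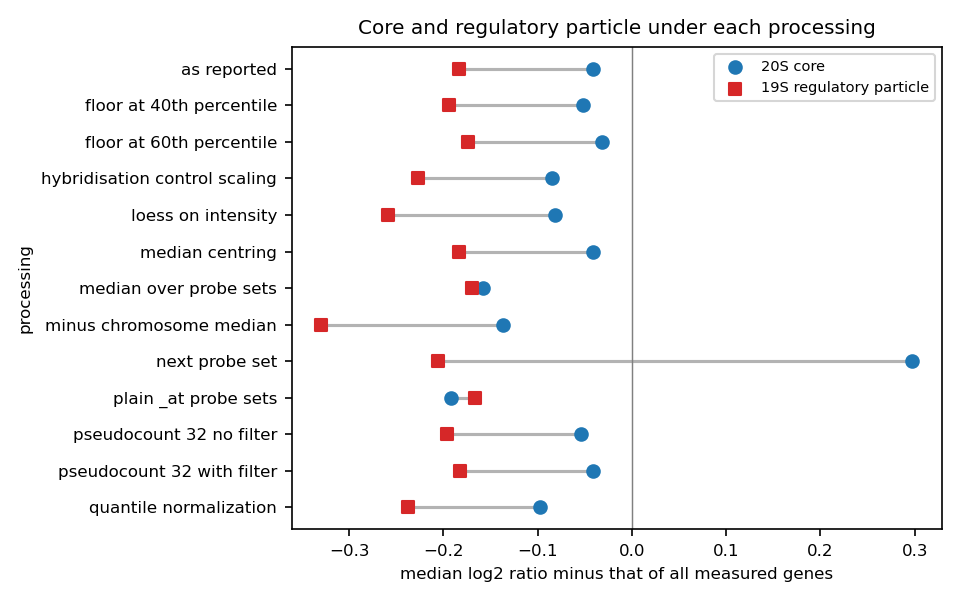
Median log2 ratio of the 14 core genes (circles) and the 17 regulatory particle genes (squares), minus the median of all measured genes (x axis), as reported and under each other processing (rows; fewer genes in the plain _at and next probe set rows). Median centring and scaling to the hybridisation controls shift all ratios of these genes alike, so they could not change the distance. It is 0.14 with quantile normalization and 0.18 with a loess fit on intensity. The choice of probe set closes it, turns it or widens it.

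The kind of probe set moved with the log2 ratio of the subunits. On this array a plain _at probe set is unique to a transcript, _a_at detects several transcripts of a gene, and _s_at and _x_at share probes or similar sequence with other transcripts. Of the 31 subunits, 16 were read by a plain _at probe set and 14 of these had negative ratios, with a median of -0.37. The other 15 were read by another kind, 6 of them negative, with a median of 0.058. In the core, 6 of 7 plain _at genes were negative and 6 of 7 others positive. Among all measured genes in the same signal range the same split was smaller, with 54.4% of plain _at genes and 46.7% of others negative. The part of the probe set design in the differences between subunits was not tested.

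Genes with both kinds of probe set gave the contrast within a gene. Psmb3 had a log2 ratio of 0.14 on its _a_at probe set but -0.70 on its plain _at probe set, with strong signals on both (5305 and 3262 on the latter). Psmc4 gave 0.23 and -0.49, Psmd6 0.45 and -0.19, and Psmc2 0.19 and -0.18, in the same order. For Psma6 the _x_at probe set gave 0.72 and the plain one 0.26 (9120 and 10888), and for Psmb4 the values were 0.58 and 0.12. Over all 17 genes with both kinds measured, the other kind gave the higher ratio in 11 (64.7%), against 58.5% of all measured genes; it did so in 5 of 7 core genes and in 3 of 6 regulatory particle genes. With both probe sets at least 4 times the floor on both arrays, a limit chosen after seeing the data, the other kind gave the higher ratio in 9 of 11 genes, Psmc3ip among them, with a median difference of 0.44, against 69.4% of 1288 measured genes and a median difference of 0.22. The exceptions were Psmd11 and Psmg2. Of all 22 proteasome genes with another measured probe set, the strongest other one had the same sign in 16 (72.7%), against 69.9% of all measured genes. The sign differed for Psma1, Psmb3, Psmc2, Psmc4, Psmd6 and Psmf1, where for Psma1 the other probe set was weak (185 and 226, log2 ratio 0.28).

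**Figure D4:**
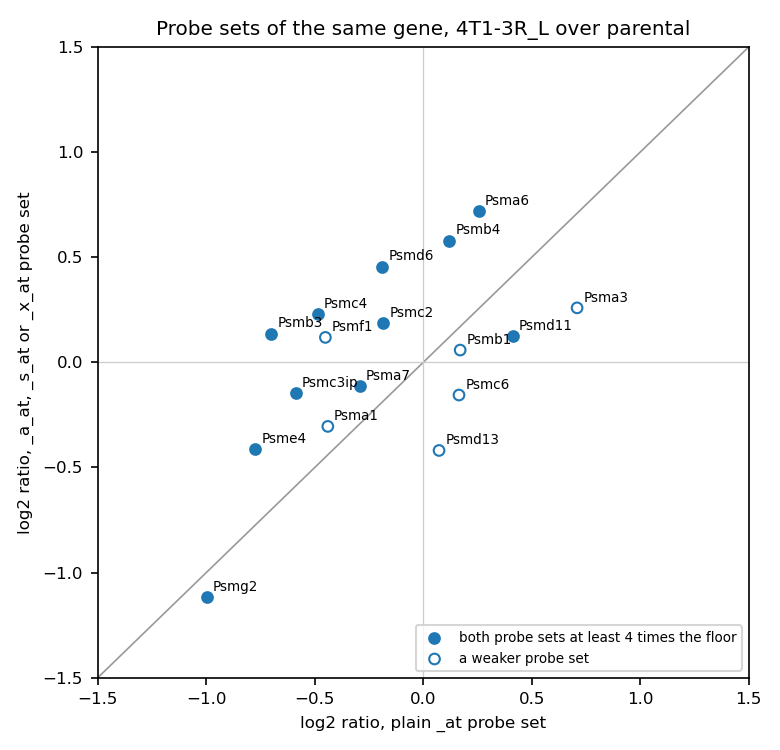
Log2 ratio of 4T1-3R_L over parental signal on the plain _at probe set (x axis) and on the strongest _a_at, _s_at or _x_at probe set (y axis) of the same gene, for the 17 proteasome genes with both measured; filled points have both probe sets at least 4 times the floor on both arrays. Of the 11 filled points, 9 lie above the line of equal ratios, led by Psmb3 and Psmc4.

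Position was a property that the choice of genes did not use. The 43 measured genes lie on 16 chromosomes of the RefSeq gene table, 9 of them on chromosome 11. Their log2 ratio went with the median of all measured genes of the same chromosome, with a Pearson correlation of 0.64 and a Spearman correlation of 0.63 over the 43 genes, against 0.23 and 0.25 over all 11095 measured genes with a chromosome. These are correlations across genes that share 2 arrays, not across samples, and are given as a description. The background was not limited to genes of like signal, and its ratios ranged over 11.8 on the log2 scale, against 1.86 for the 43. Without the 5 genes on chromosomes 8 and 12, the extremes, they were 0.48 and 0.53. On chromosome 8 all measured genes had a median of -0.26, and Psmd7 and Psme3ip1 lie there. On chromosome 12 the median was 0.28, and Psma6 and Psma3 lie there, together with Psmc1 at -0.17. Subtracting the chromosome median brought the interquartile range of the 43 ratios from 0.62 to 0.41, against 0.73 to 0.70 for all measured genes. After it Psmd7 was at -0.88 and Psmg2 at -1.11, and 34 of the 43 genes lay below the median of their chromosome. What the chromosome medians reflect was not tested.

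**Figure D5:**
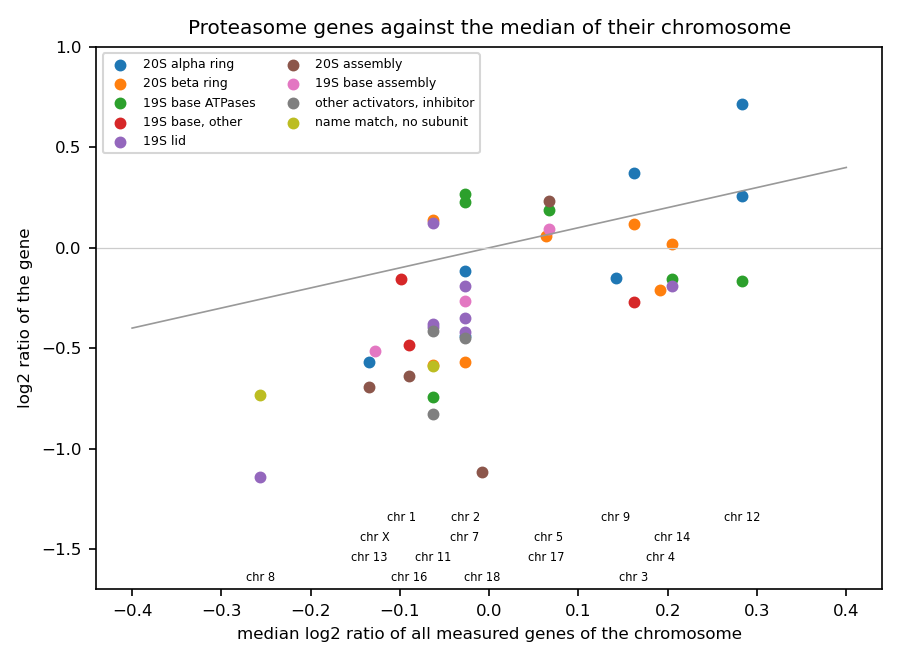
Log2 ratio of each of the 43 measured proteasome genes (y axis) against the median log2 ratio of all measured genes of its chromosome (x axis; chromosome names along the bottom, colours for part of the complex); the line marks equality. Psmd7 on chromosome 8 and Psma6 on chromosome 12 stand at the ends, Psmg2 on chromosome 18 lies far below the line, and 34 of the 43 points lie below it.

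Promoter windows were found in RefSeq (GRCm38.p6) for 36 of the 43 measured genes, leaving Psmb1, Psmb2, Psmb7, Psmc3, Psmd3, Psmd7 and Psmg2 without one. On either strand, TGANNNNGC was in the windows of 21 of 36 genes (58.3%), against 47.8% of the 9058 measured genes with a window and 41.3% of all 32851 windows. Its narrower form TGACNNNGC was in 6 of 36 (16.7%), against 17.1% of measured genes, and TGACTCAGC, contained in the former, in 0 of 36, against 0.55%. CCAAT, the box bound by NF-Y, was in 14 of 36 (38.9%), against 43.2%. CCGGAA, the core bound by ETS factors, was in 22 of 36 (61.1%), against 32.3% of measured genes and 14.9% of all windows. It was in 10 of 14 regulatory particle windows and 4 of 11 core windows. Proteasome genes with CCGGAA had a median log2 ratio of -0.40 and the 14 without it -0.15. The medians with and without were -0.16 and -0.27 for TGANNNNGC and -0.27 and -0.23 for TGACNNNGC. For CCAAT they were -0.23 and -0.23. Such medians were not computed over all measured genes, and CCGGAA is unevenly spread over the parts of the complex. A match describes letters in a window and is not a measured binding site.

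The windows of Psma6 and Psmc5 are shown because these are the highest core gene and the lowest ATPase and both hold CCGGAA, marked in capitals on either strand. Psma6 has 2 windows, of which the one with the motif is given.
Psma6 promoter, GRCm38.p6, chr12:55398575-55398874, plus strand: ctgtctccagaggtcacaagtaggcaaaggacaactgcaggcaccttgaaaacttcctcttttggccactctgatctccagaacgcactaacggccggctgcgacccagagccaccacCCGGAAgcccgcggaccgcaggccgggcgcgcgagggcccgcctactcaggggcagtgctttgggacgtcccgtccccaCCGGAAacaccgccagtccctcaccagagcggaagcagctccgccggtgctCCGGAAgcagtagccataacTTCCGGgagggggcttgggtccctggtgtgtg
Psmc5 promoter, GRCm38.p6, chr11:106255935-106256234, plus strand: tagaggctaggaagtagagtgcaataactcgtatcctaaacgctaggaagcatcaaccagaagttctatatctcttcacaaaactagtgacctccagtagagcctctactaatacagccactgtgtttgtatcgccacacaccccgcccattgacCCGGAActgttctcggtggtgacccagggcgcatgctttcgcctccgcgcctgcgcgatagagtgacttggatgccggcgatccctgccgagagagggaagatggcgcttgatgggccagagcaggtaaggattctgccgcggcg
Psma6 holds 4 matches and Psmc5 a single match, which starts 95 bases before the start site.

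Genes that control or serve the proteasome were read against the same backgrounds, 6.23% of all measured genes past 2-fold upwards and 4.48% downwards. Of 11 measured genes of the Nfe2l1 pathway and its partners, 2 passed 2-fold upwards and 0 downwards. They were the small Maf proteins Maff (340 and 757, 2.23-fold) and Mafk (261 and 614, 2.35-fold), partners of Nfe2l1 and Nfe2l2 on DNA. Nfe2l1 was level at 2241 and 2167 (-0.048), and Nfe2l2 was at 1901 and 2816 (0.57). Of 10 measured subunits, assembly or associated factors named otherwise, 0 were at least 2-fold apart. Sem1, the smallest lid subunit, was at -0.085 (8333 and 7858). The proteasome-bound deubiquitinases Usp14 (4589 and 2850.4, -0.69) and Uchl5 (4725 and 2819.7, -0.74) were both lower, at -0.10 and -0.17 on their next probe sets. Of 12 measured genes for ubiquitin activation, shuttles and the p97 adaptors, 1 was at least 2-fold lower. This was Ubqln2, a shuttle factor that carries ubiquitinated proteins to Psmd2, with 3719 in parental cells and 45.1, under the floor, in 4T1-3R_L cells. It had no other measured probe set. The related Ubqln1 and Ubqln4 were at -0.47 and -0.70, and at -0.97 and -1.23 on their next probe sets. Adrm1, Paaf1 and Ddi2 were not analysed here.

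The inducible subunits, which replace the catalytic ones under interferon, went apart from each other. Psmb8, the counterpart of Psmb5, was at 1497 and 2516 (log2 ratio 0.75), and Psmb9, the counterpart of Psmb6, at 503 and 926 (0.88). Psmb10, the counterpart of Psmb7, was 3.17-fold lower, at 2176 and 686, and lies on chromosome 8. The activator Psme1 was at 0.18 (3877 and 4399.8). Psmb6 and its counterpart Psmb9 therefore had opposite signs, while Psmb7 and Psmb10 were both lower.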

How the data were processed

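Total RNA from 1 culture per group was hybridised as biotin-labelled cRNA to Affymetrix arrays, per the labels' protocols. The deposited intensities are linear MAS5 probe set signals, per the submitters' processing notes; neither their version nor their scaling target is named there. Both arrays had a 2% trimmed mean of 500.003 and were used as deposited. Of 45101 probe sets, 34945 had 1 gene symbol in the platform annotation, 932 several and 9160 other than controls were not listed. Signals under the floor of 90.6 were set to it before log2; a gene is measured where its probe set of highest mean log2 signal reached the floor on at least 1 array. Called means at least 2-fold apart. The members, lists, alternatives and naming rule were chosen with earlier results of these data known. The rule names every member, each pathway list gene at least 2-fold apart and a fixed set of regulators. Chromosomes came from RefSeq by Entrez identifier, which matched all 45 genes. The label of the proteasome parts is textbook assignment. Alternatives covered 4 scalings, floors, a pseudocount of 32, the choice of probe set and the chromosome median. The procedure was run on simulated data in which all probe sets of a gene had the same shift. That run therefore could not show differences between probe sets of a gene. Tools were Python 3.11.15, pandas 2.3.3, numpy 2.4.6, scipy 1.17.1, statsmodels 0.14.6 and matplotlib 3.10.9. The number of arrays, 1 per group, limits the precision.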

Additional observations from a re-analysis of the deposited data

How the results depend on the processing

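Medians here are relative to all measured genes, so median centring could not change them. Scaling to the hybridisation controls shifts nearly all ratios alike and could move them little. The floors and the pseudocount left all 43 ratios within 0.1 of those reported. The median of all 43 proteasome genes stayed negative under all 12 alternatives, from -0.35 to -0.051, and that of the regulatory particle from -0.33 to -0.17. With the next probe set (22 genes) it was -0.051 for all genes, with 11 below the median gene and 0 at least 2-fold lower; the core was at 0.30, the alpha ring at 0.28, the beta ring at 0.61, the lid at 0.092, the ATPases at -0.15, the chaperones at -0.14, core minus regulatory particle at 0.50 and the interquartile range at 0.86. With plain _at probe sets the core was at -0.19, the beta ring at -0.37, the ATPases at -0.15, the lid at -0.25, core minus regulatory particle at -0.026, and Psmd7 was the 1 gene at least 2-fold lower. With the median over probe sets the core was at -0.16, the beta ring at -0.19, core minus regulatory particle at 0.011, and Psmg2 was the 1 gene at least 2-fold lower. After subtracting the chromosome median the regulatory particle was at -0.33, the beta ring at -0.19, the ATPases at -0.12, the chaperones at -0.39, the interquartile range at 0.41, and Psmg2 was the 1 gene at least 2-fold lower. With scaling to the hybridisation controls, 16 genes lay past 2-fold downwards. The 22.8% of all measured genes past 2-fold under it counts both directions and is no background for the 16. The cause of these shifts was not tested. The other rescalings, floors and pseudocounts moved none of these medians by 0.1 or more. No proteasome gene was at least 2-fold higher under any alternative. All 31 core and regulatory particle genes had signals from 14.5 times the floor upwards, so background limits the weaker chaperones more than the subunits. No paired analysis was possible because each group has 1 array.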

Other observations

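Other complexes were chosen for comparison after values were seen, and are described only. The COP9 signalosome, which removes Nedd8 from cullin ubiquitin ligases and is built like the lid, had 8 of 9 genes with negative log2 ratios and a median of -0.36, against -0.37 for the lid. The translation initiation factor eIF3, which shares subunit folds with both, had 8 of 11 negative and a median of -0.22. The CCT chaperonin, which folds actin and tubulin, had all 8 measured genes negative with a median of -0.25. Mitochondrial ribosomal proteins were lower still, with 64 of 76 negative, a median of -0.47 and 9 at least 2-fold lower, where the share over all measured genes is 4.48%. A median below that of all measured genes was thus shared by these complexes.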
